A study of Mus musculus with 6 samples.

Results

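The circadian clock of the lung was examined here through 10 transcripts, measured in 6 mice given lipopolysaccharide and then either recombinant antithrombin or saline. They are the repressors Nr1d1, Nr1d2, Ciart, Per2 and Per3, the output transcription factors Dbp, Tef and Hlf of the PAR family, and the activators Arntl and Npas2. They were chosen by symbol, through the RefSeq transcript that the array design gives for each probe. All 10 were on the array, and 9 were among the 17517 named genes that passed the filter on dim probes. The exception was Npas2.

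Each group held 3 male C57BL6 mice of 10 weeks, starved for 16 h and injected intraperitoneally with lipopolysaccharide, the endotoxin of Gram-negative bacteria, at 20 mg/kg. At 3 h and 24 h later they received saline or recombinant antithrombin, the plasma inhibitor of thrombin, at 750 IU/kg. Total lung RNA was taken 30 h after endotoxin and hybridised to one-colour Agilent arrays, 1 per mouse. All 6 mice had been starved and had received endotoxin, and mice without endotoxin were not analysed here. The labels give no hour of day for the injections or the harvest, and the part of harvest time in any difference below was not tested.

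In the mammalian clock, the proteins CLOCK and BMAL1 (the product of Arntl) bind E-boxes and switch on the genes of their own inhibitors, the PER and CRY proteins and CIART. They also switch on Nr1d1 and Nr1d2, whose products REV-ERBα and REV-ERBβ sit on ROR elements and silence Arntl and Npas2. Transcripts driven by E-boxes and transcripts silenced by REV-ERB therefore peak at opposite times of day. DBP, TEF and HLF carry the rhythm to output genes through D-boxes. The lung has its own clock, which in the airway epithelium is known to gate the response to endotoxin.

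The promoter windows of 5 members that held such binding letters are printed here. The letters did not sort the members by role, since Per3 held only D-boxes and Nr1d2, Dbp and Hlf held none of the motifs marked below. The windows are RefSeq sequences of GRCm38.p6, reaching from 250 bases before the start site to 50 bases after it. Capitals mark the E-box CACGTG, the related E′-box CACGTT, the D-box in its forms TTATGTAA and TTACGTAA, and the ROR element, each searched on both strands. The matches stand in Nr1d1 (chr11:98775328-98775627, minus strand), Tef (chr15:81802423-81802722, plus strand), Ciart (chr3:95882179-95882478, minus strand), Per3 (chr4:151044616-151044915, minus strand) and Arntl (chr7:113207261-113207560, plus strand).
Nr1d1: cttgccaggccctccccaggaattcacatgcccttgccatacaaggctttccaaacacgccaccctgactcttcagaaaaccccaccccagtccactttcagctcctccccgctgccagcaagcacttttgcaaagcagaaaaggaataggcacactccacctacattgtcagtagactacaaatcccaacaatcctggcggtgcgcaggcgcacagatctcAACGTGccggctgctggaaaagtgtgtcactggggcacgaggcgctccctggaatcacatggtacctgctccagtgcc
Tef: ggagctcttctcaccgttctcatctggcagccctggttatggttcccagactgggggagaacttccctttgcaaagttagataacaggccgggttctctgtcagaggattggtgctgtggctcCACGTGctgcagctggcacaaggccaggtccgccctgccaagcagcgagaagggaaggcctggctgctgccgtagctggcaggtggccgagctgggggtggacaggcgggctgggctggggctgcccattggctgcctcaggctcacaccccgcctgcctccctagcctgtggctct
Ciart: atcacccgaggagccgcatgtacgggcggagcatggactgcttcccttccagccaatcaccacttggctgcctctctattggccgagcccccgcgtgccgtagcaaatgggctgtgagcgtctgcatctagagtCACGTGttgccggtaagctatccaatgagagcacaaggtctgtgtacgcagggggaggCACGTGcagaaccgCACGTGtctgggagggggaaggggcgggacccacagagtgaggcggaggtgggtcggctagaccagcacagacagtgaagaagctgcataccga
Per3: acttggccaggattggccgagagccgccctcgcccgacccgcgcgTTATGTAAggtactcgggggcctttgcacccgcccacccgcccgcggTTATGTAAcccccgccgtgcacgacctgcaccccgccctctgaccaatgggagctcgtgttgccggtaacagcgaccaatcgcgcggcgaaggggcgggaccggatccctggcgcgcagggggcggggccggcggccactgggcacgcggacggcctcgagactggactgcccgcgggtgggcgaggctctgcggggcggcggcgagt
Arntl: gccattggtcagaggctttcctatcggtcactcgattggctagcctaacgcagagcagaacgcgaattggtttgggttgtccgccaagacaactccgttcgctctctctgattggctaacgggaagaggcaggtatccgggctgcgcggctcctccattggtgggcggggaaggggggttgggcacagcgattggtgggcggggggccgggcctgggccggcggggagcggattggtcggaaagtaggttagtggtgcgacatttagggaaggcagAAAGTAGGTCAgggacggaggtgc

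Ciart held 3 E-boxes, the first letters of which lay 116, 58 and 44 bases before the start site. Tef held 1 E-box in each of its 2 start site windows, and Nr1d1 held 1 E′-box in reverse orientation. An E-box was present in 7.15% of the 32851 promoter windows of this length, and an E′-box in 4.68%. Per3 held 2 D-boxes, against 1.06% of all windows with at least 1. Arntl held a ROR element just after the second of its 2 start sites, where 0.384% of windows had a match. The windows of Nr1d2, Dbp, Hlf and Npas2 held none of these letters, and for Per2 no window was used. A match describes letters in a window, and nothing here measured binding.

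**Figure D1:**
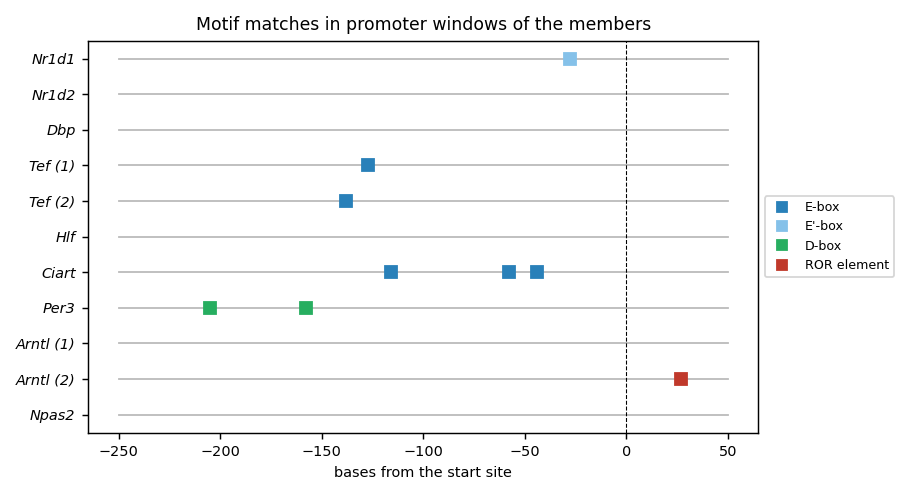
Motif matches in the promoter windows of 9 members, by distance of the first matching base from the start site (in bases), with 2 windows for Tef and for Arntl. The 3 E-boxes of Ciart, the 2 D-boxes of Per3 and the ROR element of Arntl stand out. The windows of Nr1d2, Dbp, Hlf and Npas2 hold none of the motifs drawn.

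The comparison asks whether clock transcripts of the lung differ when antithrombin is given after endotoxin. All 8 repressor and PAR members had a negative mean difference, from -0.17 for Per2 to -1.47 for Nr1d1 on the log2 scale, while Arntl differed by -0.11. The median over the 8 was -0.69, against -0.05 over the 32457 genes and unnamed probes tested, of which 56.1% had a negative difference. None of the 9 tested members passed an adjusted p of 0.05 (limma, Benjamini-Hochberg over all genes tested), nor did more than 0.00308% of all genes in either direction. At an unadjusted p under 0.05 there were 4 of 9 members, all lower, against 12.4% of all genes lower and 8.95% higher at that p. The 3 antithrombin values lay below all 3 saline values for the same 4 members, Nr1d1, Dbp, Tef and Ciart, against 17.6% of all genes. In whole lung, fewer cells of a type and less RNA per cell cannot be told apart.

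Nr1d1 encodes REV-ERBα, the nuclear receptor that silences Arntl. Signals are given as log2 of the background-subtracted intensity relative to the 75th percentile of the array. Nr1d1 stood at -0.05, -1.06 and 0.69 in saline mice 1, 2 and 3, and at -1.34, -1.43 and -2.07 in antithrombin mice 1, 2 and 3. Every antithrombin mouse lay below every saline mouse, although saline mouse 2 was within 0.29 of the nearest antithrombin mouse. The mean was 2.78-fold lower after antithrombin, with a 95% interval of the log2 difference from -2.52 to -0.43 (limma adjusted p = 0.168). Only 0.327% of all genes tested had a more negative difference.

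Its paralogue Nr1d2 encodes REV-ERBβ. Nr1d2 stood at 1.46, 0.72 and 1.52 in the saline mice and at 0.71, 0.92 and 0.54 in the antithrombin mice. The groups overlapped, because saline mouse 2 lay among the antithrombin mice while saline mice 1 and 3 lay above all of them. The log2 difference was -0.51 (95% interval -1.07 to 0.05, limma adjusted p = 0.258). A dimmer Nr1d2 probe gave -0.42.

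The PAR factors bind D-boxes as dimers of basic leucine zippers. Dbp, the PAR gene known for its steep daily swing, stood at 2.23, 1.81 and 3.26 in saline mice 1, 2 and 3, and at 1.51, 1.62 and 1.25 in the antithrombin mice. The groups did not overlap, and saline mouse 3 was far above the rest. The mean was 1.96-fold lower after antithrombin (log2 difference -0.97, 95% interval -1.82 to -0.12, limma adjusted p = 0.199), and a further Dbp probe gave -0.69.

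Tef stood at 4.95, 4.69 and 5.35 in the saline mice and at 4.36, 4.48 and 4.15 in the antithrombin mice. These groups were also apart, and Tef had the narrowest interval of the 4 separated members. Its mean was 1.59-fold lower (log2 difference -0.67, 95% interval -1.12 to -0.21, limma adjusted p = 0.163). Probes for another Tef transcript gave -0.83 and -0.58. Hlf, the third PAR gene, stood at -0.66, -1.42 and -0.20 in the saline mice and at -1.26, -1.20 and -1.94 in the antithrombin mice. Saline mouse 2 lay among the antithrombin mice, so the Hlf groups overlapped. Its log2 difference was -0.70 (95% interval -1.52 to 0.11, limma adjusted p = 0.278).

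Ciart encodes CHRONO, an inhibitor of CLOCK and BMAL1, and is the member with 3 E-boxes in its window. It stood at -1.85, -2.21 and -0.88 in the saline mice and at -2.80, -2.48 and -2.43 in the antithrombin mice. The groups did not overlap, and the antithrombin mice lay close together. The mean was 1.89-fold lower (log2 difference -0.92, 95% interval -1.71 to -0.13, limma adjusted p = 0.198). A second Ciart probe, well above background on 3 of 6 arrays, gave -0.27, and the mean of both probes -0.59.

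The period genes showed smaller differences. Per3 stood at -1.38, -1.42 and -0.78 in the saline mice and at -1.54, -1.42 and -1.99 in the antithrombin mice. Saline mouse 2 and antithrombin mouse 2 differed by less than 0.01, so the groups met without separating. The log2 difference was -0.45 (SE 0.23, limma adjusted p = 0.292), and another Per3 probe gave -0.72. Per2 stood at 1.90, 1.65 and 2.31 after saline and at 1.81, 1.98 and 1.55 after antithrombin. The Per2 groups were intermixed, with a log2 difference of -0.17 (95% interval -0.65 to 0.31, limma adjusted p = 0.629).

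**Figure D2:**
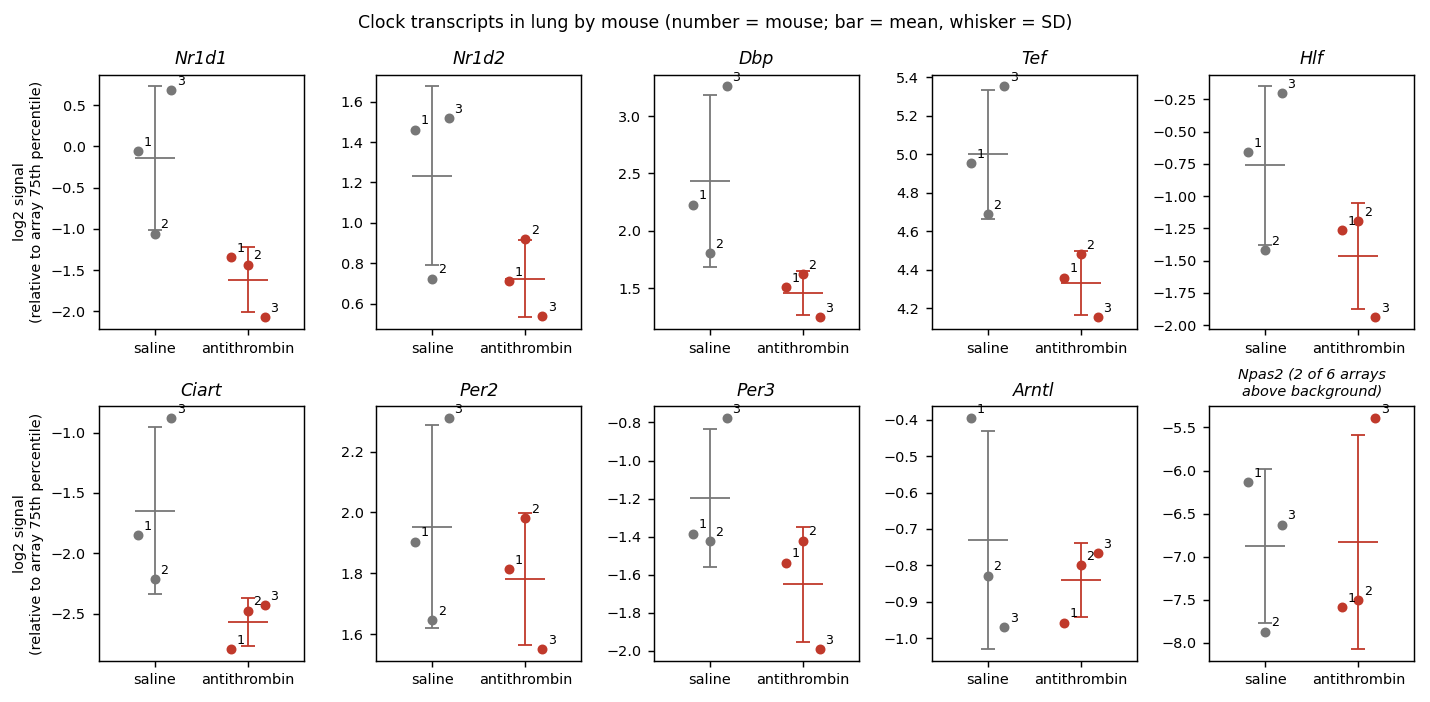
Log2 signal of each member in every mouse, relative to the 75th percentile of its array, with saline in grey and antithrombin in red. Points are mice with their numbers, bars are means and whiskers SD over 3 mice, and each panel has its own axis. Nr1d1, Dbp, Tef and Ciart are separated between groups, and saline mouse 3 is the highest point of all 8 repressor and PAR panels.

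Of the 2 activators, only Arntl could be tested. Arntl, which encodes BMAL1, stood at -0.40, -0.83 and -0.97 in saline mice 1, 2 and 3, and at -0.96, -0.80 and -0.77 in the antithrombin mice. All 3 antithrombin values lay inside the saline range, and the highest and lowest of the 6 were both saline mice. The log2 difference was -0.11 (95% interval -0.51 to 0.29, limma adjusted p = 0.72), and 2 dimmer Arntl probes gave -0.06 and -0.04. The interval spans 0.701 to 1.22 times the saline level.

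Npas2, the CLOCK paralogue, was well detected on 1 array of each group. It was therefore not tested, and its values from -7.87 to -5.39 lay around the lowest well-detected signals of the arrays, which were -6.99 to -6.62. No difference in Npas2 was detectable on these arrays.

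Within each array, the deviation of Arntl from its saline mean was set against that of each repressor or PAR member. With all 6 mice the mean deviation of Arntl after antithrombin was above that of each of the 8, by 0.06 for Per2, where the exact permutation p was 0.9, up to 1.36 for Nr1d1 on the log2 scale. The groups did not overlap against Nr1d1, Dbp, Tef and Ciart, the members whose own groups were separated. Arntl itself differed by only -0.11, so the contrast largely restates each member's own difference. No share over all genes is given for this contrast, and opposite timing was not tested. For each of these 4 members the exact two-sided permutation p was 0.1, the smallest that 3 against 3 allows, or 0.2 after adjustment over the 8 pairs. No pair could therefore pass the adjusted threshold, whatever its values, and nothing is concluded from this test. The difference of Arntl, itself negative, minus the mean over the 8 was 0.62, and 0.23 without saline mouse 3, where Arntl (-0.23) lay below Per2 (0.01). Within the first row of the slide, which held saline mice 1 and 2 and antithrombin mice 1 and 2, Arntl differed by -0.27 and lay below Hlf (-0.19), Per3 (-0.07) and Per2 (0.12). Within the second row, with 1 mouse of each group, Arntl differed by 0.20. Npas2 is left out of these values, since its signal lay at the detection limit.

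**Figure D3:**
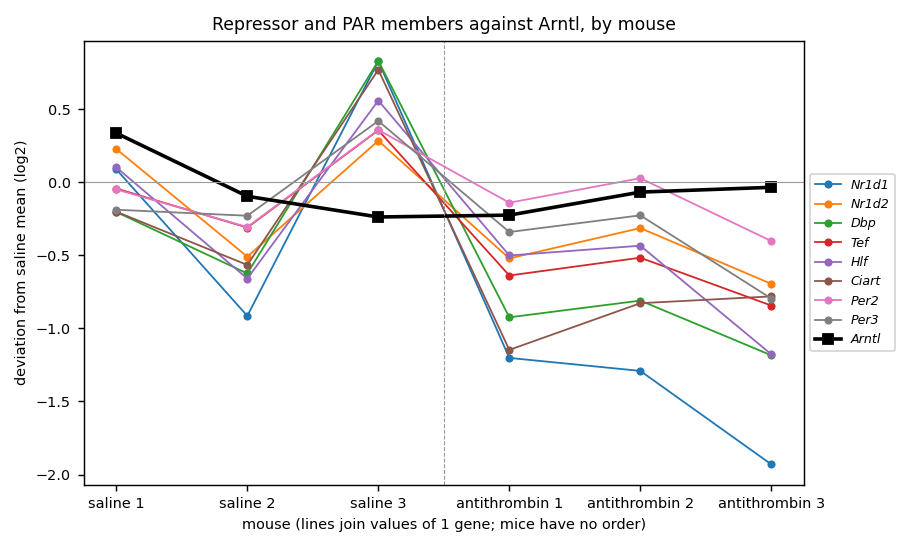
Deviation of 8 repressor and PAR members (thin lines) and Arntl (thick black line) from their saline means, in log2 units, for each of the 6 mice. The 8 lines share a peak at saline mouse 3 and a dip at saline mouse 2, where Arntl has its lowest value at saline mouse 3, and in the antithrombin mice all lie below 0 except Per2 in mouse 2. Arntl is also below 0 in these mice, at -0.23, -0.07 and -0.04.

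The 8 members varied together among the saline mice themselves. Saline mouse 3 had the highest signal of all 6 arrays for 8 of 8 members, and saline mouse 2 the lowest of the saline arrays for 8 of 8. Over all genes tested, saline mouse 3 was highest for 27.5%, and the order of saline mice 3, 1 and 2 from high to low was seen for 22.5%. Between saline mice 3 and 2, Nr1d1 differed 3.35-fold, Dbp 2.74-fold, Ciart 2.52-fold and Hlf 2.33-fold. The spread was wider with saline for 8 of 8 members, with a median SD of 0.53 against 0.21 after antithrombin. Over all genes the saline SD was the larger for 62.6%, with medians of 0.19 and 0.15. Antithrombin mouse 3 had the lowest signal of all 6 arrays for 7 members, against 20.5% of all genes, Ciart being lowest in antithrombin mouse 1. The first principal component over the genes tested, with 51.8% of the variance, placed saline mice 1, 2 and 3 at -48.2, 7.9 and -62.4. Antithrombin mice 1, 2 and 3 stood at 28.5, 24.9 and 49.3 on it. This order of mice was therefore not particular to the 8 members.

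Each contrast was therefore read with saline mice 2 and 3 left out in turn. Without saline mouse 3, the highest, the median over the 8 moved from -0.69 to -0.46 and the Nr1d1 difference to -1.06. Dbp then stood at -0.56, Ciart at -0.53, Hlf at -0.43 and Per3 at -0.25. Per2 was at 0.01, and 4 members had an unadjusted p under 0.05, against 6.83% of all genes lower at that p, with 0 past the adjusted threshold (limma). Without saline mouse 2, the lowest, the median was -0.93, and Nr1d1 (-1.93, adjusted p = 0.0318), Nr1d2 (-0.77, 0.0367) and Tef (-0.82, 0.0438) passed the adjusted threshold (limma). Without that mouse 5.58% of all genes passed as lower. Then 7 members were separated between groups, against 29.7% of all genes with antithrombin lower. Over all genes, saline mouse 2 correlated better with the antithrombin arrays (mean r 0.993) than with its own group (0.989). Omitting it therefore widens the gap by construction. Without antithrombin mouse 1, 2 members had an unadjusted p under 0.05, against 8.33% of all genes lower. Without antithrombin mouse 3 the difference was -0.47 for Hlf and -0.28 for Per3. Saline mouse 3 and antithrombin mouse 3 shared the second row of the slide, and the other 4 arrays the first. Within the first row the Nr1d1 difference was -0.83 and within the second -2.76. All 8 members were negative within the second row, and 7 within the first, where Per2 was the exception.

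**Figure D4:**
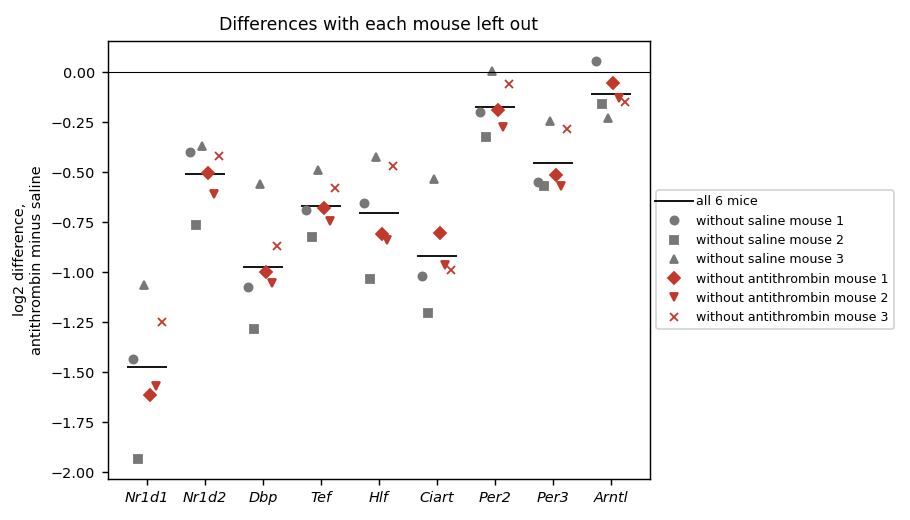
Log2 difference, antithrombin minus saline, of 9 members with all 6 mice (bars) and with each mouse left out (grey symbols for saline mice, red for antithrombin mice). The 7 members from Nr1d1 to Ciart and Per3 stay below 0 throughout, Per2 reaches 0.01 without saline mouse 3 and Arntl 0.06 without saline mouse 1.

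The remaining clock genes were read from a list of 22, of which 21 were tested. Of these, 16 had a negative and 5 a positive difference, with a median of -0.29. None passed the adjusted threshold (limma), and 6 were lower and 0 higher at an unadjusted p under 0.05, against 12.4% of all genes lower. In 5 of 21 every antithrombin mouse was below the saline range, near the 17.6% of all genes, and in 1, Alas1, every antithrombin mouse was above it, against 11% of all genes. Without saline mouse 2, 4 passed the adjusted threshold as lower, against 5.58% of all genes, and without saline mouse 3, 0 passed and 1 was lower at an unadjusted p under 0.05, against 6.83% of all genes. Among repressors, Cry2, a partner of the PER proteins, differed by -0.72 (limma adjusted p = 0.223), Per1 by -0.44, the E-box competitor Bhlhe40 by -0.29 and Cry1 by -0.13. Among activators, Rora, whose product competes with REV-ERB for ROR elements, differed by -0.48 and Clock by -0.38. A further Cry1 probe gave -0.44. Of the further Clock probes, 1 well above background on all 6 arrays gave 0.08 and 1 on 4 of 6 arrays gave -0.95.

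Fbxl21, an F-box gene whose product binds CRY proteins, stood at -4.98, -5.05 and -4.74 in the saline mice and at -5.49, -5.31 and -5.29 in the antithrombin mice. The groups were separated (log2 difference -0.44, limma adjusted p = 0.165). The casein kinase gene Csnk1e differed by -0.33 and was also separated between groups. The other kinase and ligase genes read, Btrc (-0.15), Fbxw11 (-0.07) and Csnk1d (0.01), had overlapping groups. Genes silenced by REV-ERB elsewhere were not uniformly on 1 side. Nfil3, which encodes the repressor that competes with PAR factors at D-boxes, differed by 0.13 (95% interval -0.18 to 0.45). Cry1 and Clock were negative by their brightest probes, with the further probes as given above. Of 4 output genes, the deubiquitinase gene Usp2 differed by -0.60, Tspan4 by -0.31, Wee1 by -0.02 and Nampt by 0.19. Of 3 genes that PAR factors drive in liver and kidney, Por differed by -0.68, Nr1i3 by -0.35 and Alas1 by 0.08.

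**Figure D5:**
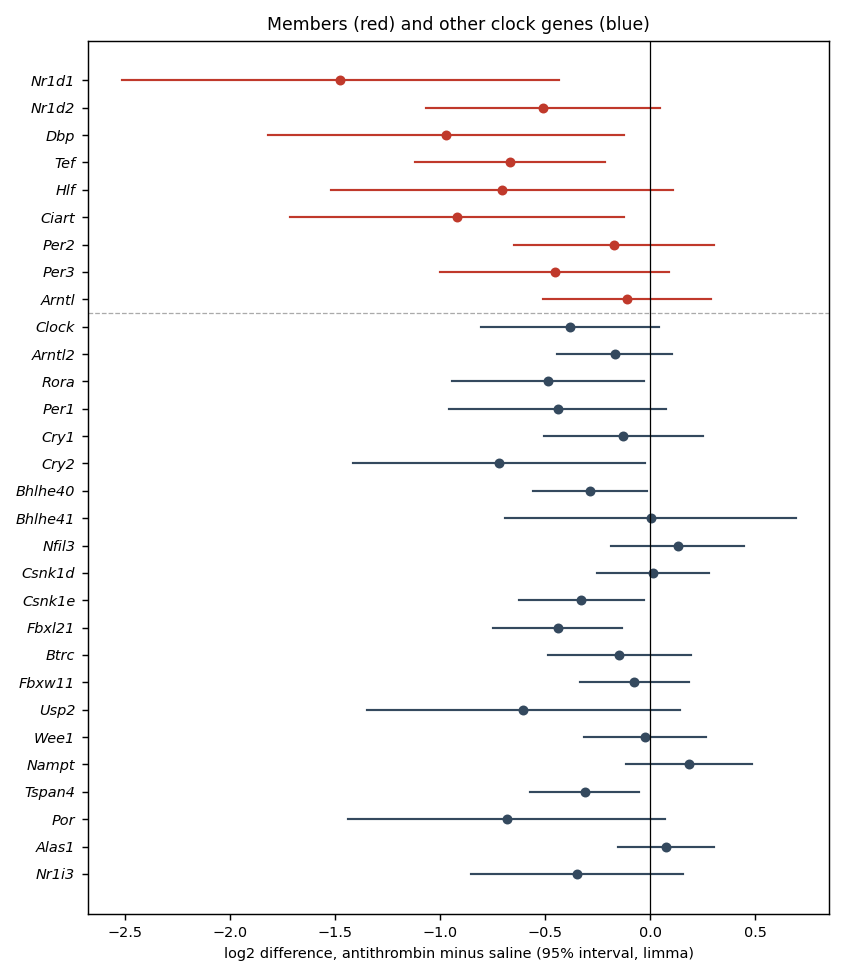
Log2 difference, antithrombin minus saline, with its 95% interval from limma, for the 9 tested members (red, above the dashed line) and 21 other clock genes (blue). Nr1d1 lies farthest from 0 at -1.47, followed by Dbp and Ciart, while Arntl, Csnk1d and Wee1 lie close to 0.

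Marker lists moved with the groups beside these transcripts, and their part in the clock differences was not tested. A list score is the mean deviation of its tested members from the saline mean. The glucocorticoid target list, which includes Per1, had 10 of 10 members with a negative difference, against 56.1% of all genes, and a median of -0.50. Of these, 5 were lower at an unadjusted p under 0.05, against 12.4% of all genes, and 0 passed the adjusted threshold (limma). Its scores were -0.02, -0.23 and 0.25 in saline mice 1, 2 and 3, and -0.39, -0.41 and -1.02 in antithrombin mice 1, 2 and 3. The mean over the 8 members had the same order within the saline mice, at -0.03, -0.52 and 0.55, and was -0.68, -0.55 and -0.98 after antithrombin. The neutrophil score ranged from -0.17 to 0.28 with saline and from 0.46 to 0.59 after antithrombin, with 11 of 13 tested markers positive, against 43.9% of all genes. Scores also stood apart for alveolar type 1 cells (-0.06 to 0.10 against -0.31 to -0.20), ciliated cells (-0.32 to 0.19 against 0.35 to 0.47) and fibroblasts with smooth muscle (-0.19 to 0.14 against 0.22 to 0.35). Negative differences were seen for 6 of 7 tested alveolar type 1 markers, and positive ones for 6 of 6 ciliated markers. Of the 9 fibroblast and smooth muscle markers, 6 were positive and 3 negative. Cnn1 (1.43), Myh11 (0.72) and Acta2 (0.52) were highest. Fibroblast markers went both ways, with Col1a1 (0.28), Col3a1 (0.23) and Col1a2 (0.13) positive and Pdgfra (-0.47) and Dcn (-0.21) negative. The smooth muscle marker Tagln (-0.00017) was the remaining negative one. Scores of the endothelium, alveolar type 2, club, lymphoid, monocyte, cardiac and fat lists overlapped. All 8 alveolar type 2 markers were well above background on all 6 arrays and the fat marker Ucp1 was not well above background on any.

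The named genes nearest in pattern were sought by the root mean square distance between their 6 deviations and those of a member, over 15968 other named genes. Nearest to Nr1d1 were Tex35, Kcng1, Spata48, Pgbd5 and Sdcbp2, at distances of 0.16 to 0.20. The nearest member was Dbp, at 0.42 and rank 58, followed by Ciart at rank 129 and Hlf at rank 157. Nearest to Arntl were Zfp119a, Twsg1, Septin4, Mapkbp1 and Chrm1, at distances of 0.05 to 0.07. From Arntl, Nr1d1 was at rank 15801, whereas from Nr1d1, Arntl was at rank 7078. The distance grows with the size of a gene's deviations, so a late rank does not show an opposite pattern.

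Detection was even over the series, with 69.8% to 72.1% of probes per array well above background and 0 saturated spots. The 6 arrays shared 1 slide and 1 scan day. Precision is limited by having 3 mice per group, each named separately in the labels. Of the 9 further probes for these members, 9 had the sign of the probe used. Nr1d1, Hlf and Npas2 had no further probe. The further probes of Arntl (-0.06 and -0.04) and Per2 (-0.03) lay near 0.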

How the data were processed

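Lung RNA of 3 saline and 3 antithrombin mice, grouped by sample title, was read from scanner files. Per the file headers, the deposited intensity values came from Agilent Feature Extraction 10.7.3.1, with the processed signal background-subtracted and unscaled between arrays. The submitters' processing notes name version 9.1, and the difference was not resolved. In the deposited log2 value table, each column differed from the log2 processed signal only by offsets for the probe and for the array (100% of probes within 0.01). How it was scaled is unknown. Its column medians were -0.0282, -0.00128 and 0.0763 for saline mice 1 to 3 and -0.0357, -0.0369 and 0.0133 for antithrombin mice 1 to 3.

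Control and outlier spots were left out, log2 signals were scaled to the 75th percentile of each array, and spots of a probe averaged. RefSeq accessions without version (GRCm38.p6, names only) named 32994 of 56605 probes. The brightest probe stood for a gene. Those well above background on at least 3 arrays, 32457 in all, entered a two-sided moderated test (limma 3.58.1, functions lmFit and eBayes, under R 4.3.3). P-values were adjusted by Benjamini-Hochberg across all of these, with a threshold of 0.05. The fit was tested on simulated data.

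The members and lists were chosen with earlier results of these data known. The genes named are the members, a clock list, from which some genes are not reported here, and the 5 nearest in pattern to Nr1d1 and Arntl. From the planned promoter windows Dbp and Npas2 held no match and are not printed, and Tef and Per3 were added after the matches were seen. Promoters came from RefSeq for 9 of 10 members. Alternatives were normexp (offset 50, on the median pixel signal, since mean signals were not in the files read), quantile and median scaling, no or a stricter filter, the mean of detected probes, all probes singly, the deposited table, trended and robust variance, array weights, mouse number or array row as a block, and leaving out each mouse. Figures were drawn with matplotlib 3.10.9.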

Additional observations from a re-analysis of the deposited data

How the results depend on the processing

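Across 18 alternatives, Nr1d1, Nr1d2, Dbp, Tef, Hlf, Ciart and Per3 kept a negative difference, and the median over the 8 repressor and PAR members ran from -0.93 to -0.46. The changed filters, all probes singly, trended and robust variance and both blocks left each difference as it was, so its sign could not turn there. Arntl turned to 0.058 without saline mouse 1, within -0.229 to 0.0579 over the mice left out, and Per2 turned to 0.0061 without saline mouse 3, within -0.326 to 0.00614. The cause was not tested. Members past the adjusted threshold (limma) numbered 0 in the main comparison, 1 with array weights (Nr1d1, adjusted p = 0.0419) and 0 to 3 with each mouse left out. With array weights 1483 of the 32457 genes tested passed as lower. Without saline mouse 2, where 3 members passed, 5.58% of all genes passed as lower. Members at an unadjusted p under 0.05 ran from 2 without antithrombin mouse 1 to 6 without saline mouse 2, and members with separated groups from 4 to 7 with each mouse left out. Of all genes, 8.33% and 17.7% were lower at an unadjusted p under 0.05 without antithrombin mouse 1 and without saline mouse 2. The count of members was also 6 with normexp and with array weights, where 15.2% and 18.6% of all genes were lower at that p. With each mouse left out, 20.7% to 29.7% of all genes were separated with antithrombin lower. The fewest separated members were 3, with the mean of detected probes, where 17% of all genes were separated with antithrombin lower.

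Of all genes, 2 passed the adjusted threshold, against 1 with quantile normalization, median scaling, no filter, detection on all arrays, all probes singly, trended and robust variance or the array row as a block. The count was 2700 with array weights, and 0 to 3341 with each mouse left out, the highest without saline mouse 2. The causes were not tested. With the mouse number as a replicate block the count was 0. The numbers do not pair the mice, since deviations of same-numbered mice correlated at -0.01, -0.16 and -0.28. The block left 4 members at an unadjusted p under 0.05, against 8.78% of all genes lower at that p, and changed no member's call.

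The Arntl difference minus the mean over the 8 members was 0.62, and 0.23 to 0.83 with each mouse left out, lowest without saline mouse 3. The planned gap over both activators is not read, because Npas2 was not well above background on 4 of 6 arrays and its untested difference ran from -0.67 to 0.43 over the mice left out. Signal over background limits Npas2, and 6 arrays limit all intervals.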
